A study of Mus musculus with 35 samples.

Results

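Expression of the genes that take up, bind and activate long-chain fatty acids was followed in the small intestine of wild-type and PPARα-null mice after 4 agonists of PPARα. The genes were Cd36, Slc27a2, Slc27a4, Fabp1, Fabp2, Dbi, Acsl1, Acsl3, Acsl4 and Acsl5, and every probeset of the array whose single gene symbol was one of these was taken. Of the 10 genes, 9 had such a probeset. Acsl1, the long-chain acyl-CoA synthetase best known from liver and fat, was not paired with one in the probe table used and was not analysed here. The 9 genes had 19 of the 45037 probesets, and 16 of the 19 were among the 15384 probesets counted as expressed, which means that 1 or more of the 8 group means exceeded 32 (log2 5). The others were 1 probeset of Acsl3 and 2 of Acsl4. Where a gene had several probesets, the values below are those of the one with the highest mean over all arrays, unless another is named.

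The mice were males of 4 months, either wild-type (129S1/SvImJ) or PPARα-null (129S4/SvJae), so that the deletion and the difference in substrain cannot be told apart. All had eaten a modified AIN76A diet with olive oil for 2 weeks and were fasted for 4 h before a gavage of 400 µl, and the small intestine was taken 6 h later over its full length, 1 mouse per array. The agonists were WY14643, a synthetic PPARα ligand given as a 0.1% suspension in carboxymethyl cellulose (4 wild-type and 4 null mice), and the triacylglycerols of docosahexaenoic acid (DHA, 5 and 4 mice), eicosapentaenoic acid (EPA, 5 and 5 mice) and oleic acid (OA, 4 and 4 mice). Mice without an agonist were not analysed here, so each value compares treated mice with treated mice.

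PPARα is a nuclear receptor that is activated by fatty acids and binds DNA together with RXR, and in liver and intestine it is known for controlling genes of fatty acid transport and oxidation. A fatty acid released from dietary fat enters the enterocyte across the apical membrane, where CD36 and the fatty acid transport proteins of the Slc27 family take part in uptake. Inside the cell it is carried by fatty acid-binding proteins and is joined to coenzyme A by acyl-CoA synthetases, and the resulting acyl-CoA is bound by the protein that Dbi encodes. Acyl-CoA is the form that enters oxidation in mitochondria and peroxisomes or is built into triacylglycerol for export in chylomicrons.

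Ppara itself, the deleted gene, had 3 probesets, all expressed and all higher in wild-type than in null mice after WY14643. Their log2 differences were 1.53 (adjusted p = 0.00626), 3.33 (adjusted p = 0.000314) and 2.16 (adjusted p = 0.00078). After DHA they were 1.03 (adjusted p = 0.069), 2.05 (adjusted p = 0.0285) and 1.08 (adjusted p = 0.102). No Ppara probeset passed after EPA or OA with all arrays. Without the 3 arrays described below all passed after DHA (adjusted p = 0.00234, 0.000856 and 0.00369) and after EPA. After OA still none did (adjusted p = 0.349, 0.0597 and 0.0597). On the brightest Ppara probeset the wild-type arrays ran from 11.06 to 11.71 and the null arrays from 9.74 to 10.26 after WY14643, and from 9.96 to 10.45 and 8.82 to 9.76 after DHA. The null arrays thus kept a signal, and whether the probes lie in the deleted part is not known here. On 3 arrays the genotype label was opposed by the probeset shared by Cyp4a10 and Cyp4a31, ω-hydroxylases that depend strongly on PPARα. It read from 8.15 to 12.75 on the log2 scale in the other 17 wild-type arrays and from 1.36 to 2.50 in the other 15 null arrays, but 1.81 in wild-type EPA replicate 5, 9.91 in null EPA replicate 5 and 10.61 in null OA replicate 1. The Ppara probesets went against the same labels. Beside the other arrays of its own group, wild-type EPA replicate 5 read lowest on all 3 of them (8.14 on the brightest, beside 9.45 to 9.93), and null EPA replicate 5 (10.29, beside 8.19 to 8.95) and null OA replicate 1 (10.02, beside 8.50 to 9.20) read highest. All arrays were kept under their labels, and the comparisons that these 3 arrays enter are also given without them where a call changed or where a difference between genotypes turned its sign or moved by over 1.5-fold. Leaving them out was decided with the values known, and because it removes arrays for opposing their genotype it favours a difference between genotypes. The enterocyte markers on the array, 7 of 7, were all expressed, and their summed level on the linear scale ran from 46300 to 60300. Markers of acinar pancreas ran from 177 to 65000, although pancreatic tissue had been removed at dissection. In an extract of whole intestine, fewer cells of a type and less RNA per cell cannot be told apart.

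After WY14643, 8 of the 9 genes had higher expression in the wild-type group and none had lower, while 7.56% of all 8626 expressed genes were called in either direction, 4.13% as higher and 3.43% as lower in wild-type mice. A gene counts as called here if any of its expressed probesets passed an adjusted p of 0.05. The exception was Acsl4. The median difference over the 9 genes was 0.34 on the log2 scale, beside -0.058 over all expressed genes. Of the 16 expressed probesets, 15 had every wild-type array above every null array, and 14.1% of all expressed probesets had groups that did not overlap. Cd36, Slc27a2 and Acsl3 differed more than 2-fold, with folds of 2.30, 2.25 and 2.33. There were 8 calls without the 3 arrays as well, beside 8.52% of all expressed genes.

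**Figure D1:**
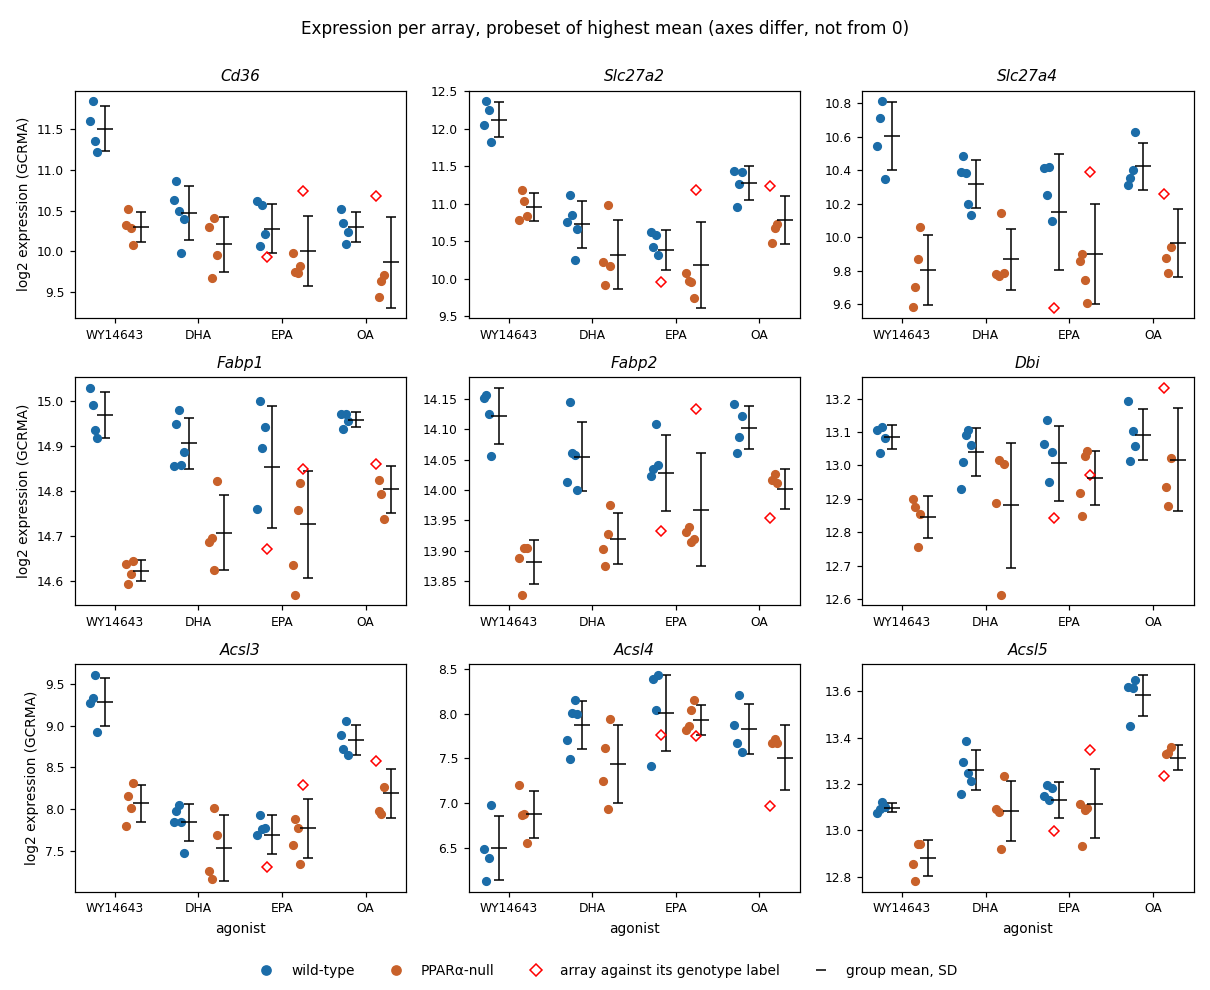
Log2 expression of each gene in each array, by agonist (x axis) and genotype (blue, wild-type; orange, PPARα-null), with the group mean and SD (n = 4 or 5). Open red diamonds are the 3 arrays that go against their genotype labels, and y axes differ between panels and do not start at 0. After WY14643 the wild-type arrays lay above the null arrays in every panel apart from Acsl4, and Acsl4 lay lowest after WY14643 in both genotypes.

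Among the genes of uptake, Cd36, a membrane receptor for fatty acids and lipoproteins, read 11.59, 11.84, 11.35 and 11.22 in the wild-type WY14643 arrays and 10.32, 10.52, 10.29 and 10.08 in the null arrays. Every wild-type array was above every null array. The difference was 1.20 on the log2 scale (SE 0.23, adjusted p = 0.000637), and the other probesets of Cd36 gave 1.24 (adjusted p = 0.0062) and 1.17 (adjusted p = 0.00561). Slc27a2 encodes FATP2, a transport protein that also activates very long-chain fatty acids in peroxisomes. It read 12.04, 12.37, 12.24 and 11.82 in wild-type and 10.78, 11.18, 11.03 and 10.83 in null mice. The groups were again apart, by 1.17 (SE 0.24, adjusted p = 0.00122). Slc27a4, which encodes FATP4, the fatty acid transport protein best known from enterocytes, read 10.55, 10.71, 10.81 and 10.35 in wild-type and 9.58, 9.70, 9.87 and 10.06 in null mice. These did not overlap either, with a difference of 0.80 (SE 0.16, adjusted p = 0.000883).

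Both fatty acid-binding proteins were called. Fabp1, the liver type of fatty acid-binding protein, which is also made in enterocytes, read 15.03, 14.99, 14.94 and 14.92 in wild-type and 14.64, 14.60, 14.62 and 14.64 in null mice. These lie at the top of the scale, since 15.03 is also the highest value in the deposited data, and whether differences are compressed there was not tested. The groups did not overlap, and the difference was 0.34 (SE 0.057, adjusted p = 8.66e-05, a fold of 1.27). A second probeset of Fabp1 gave 0.46 (SE 0.069, adjusted p = 1.69e-05). Fabp2, the intestinal type, differed by 0.24 (SE 0.042, adjusted p = 0.000196, a fold of 1.18), with wild-type arrays from 14.06 to 14.16 and null arrays from 13.83 to 13.90. With quantile normalization the difference of Fabp1 fell from 0.34 to 0.23 (adjusted p = 0.000522).

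Dbi, the acyl-CoA-binding protein, had 4 expressed probesets, and 3 of them were called. On the brightest one the wild-type arrays ran from 13.04 to 13.12 and the null arrays from 12.76 to 12.90, a difference of 0.24 (SE 0.074) at an adjusted p of 0.05, just inside the threshold. The others gave 0.44 (adjusted p = 0.00501), 0.31 (adjusted p = 0.00229) and 0.25 (adjusted p = 0.055). The brightest probeset missed the threshold when any 1 of the 8 WY14643 arrays was left out, at adjusted p values from 0.0642 to 0.174.

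Of the 3 acyl-CoA synthetases analysed, Acsl3 and Acsl5 were called after WY14643 and Acsl4 was not. Acsl3, an enzyme of the endoplasmic reticulum and of lipid droplets, read 9.27, 9.33, 9.62 and 8.92 in wild-type and 7.80, 8.15, 8.01 and 8.31 in null mice. Its difference of 1.22 (SE 0.19, adjusted p = 4.34e-05) was the largest of the 9 genes on their brightest probesets, close to the 1.20 of Cd36, and its second expressed probeset gave 1.44 (SE 0.21, adjusted p = 1.78e-05). Acsl5, the synthetase known for its abundance in intestinal epithelium, read 13.07, 13.09, 13.12 and 13.10 in wild-type and 12.85, 12.78, 12.94 and 12.94 in null mice. The groups did not overlap, but the difference of 0.22 (SE 0.067) was close to the threshold (adjusted p = 0.0462) and missed it when any 1 of the 8 WY14643 arrays was left out (adjusted p from 0.0559 to 0.127). Acsl4, which prefers arachidonic acid, read 6.49, 6.13, 6.39 and 6.98 in wild-type and 7.20, 6.87, 6.89 and 6.56 in null mice, and these overlapped (difference -0.38, 95% interval -0.83 to 0.075, adjusted p = 0.389).

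Some markers of other cells differed with genotype after WY14643. Of the 6 enteroendocrine markers 4 were lower in wild-type mice (Chga, Chgb, Gip and Tph1), and their summed linear level ran from 5630 to 7930 in wild-type and from 8000 to 9270 in null mice. Of the 4 adipocyte markers on the array, Adipoq, Retn and Lep were below the expressed level, and Cidec, which encodes a lipid droplet protein, was higher in wild-type mice by 1.21 (adjusted p = 0.00209). The summed level of that list ran from 1050 to 1540 in wild-type and from 421 to 680 in null mice. The 7 enterocyte markers summed to between 56300 and 58000 in wild-type and between 56600 and 58900 in null mice, and 1 of them, Mttp, was called higher in wild-type mice (0.29, adjusted p = 0.0216). Markers of acinar pancreas summed to between 4290 and 20900 in wild-type and between 1160 and 7170 in null mice. The part of these cells in the differences above was not tested.

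The sequence just before an annotated start of each gene was searched for the DNA element at which PPARα and RXR bind, a repeat of the half-site AGGTCA with 1 base between (DR1). Sequences are those of RefSeq, build GRCm38.p6, and each window held 250 bases before an annotated start and 50 after it. The windows of Cd36, Acsl4 and Acsl5 lay wholly within the annotated span of the gene, which for Cd36 is chr5:17781690-17888959. For these genes the sequence before the outermost start was therefore not searched. A window was found for all 9 genes, with a pair of them for Dbi. The exact repeat, AGGTCA followed after 1 base by AGGTCA on either strand, was in none of them and in 0.0396% of 32851 windows of all genes. A relaxed form with any base at the fourth place of each half-site (AGGNCA), which includes the exact form, was in 0.381% of all windows and in that of Fabp1. A lone half-site AGGTCA, which the exact repeat contains, was in 16.3% of all windows and in those of Cd36, Fabp1 and Slc27a2. The 3 promoters with a match are shown because these genes were among those higher in wild-type mice after WY14643. They read 5′ to 3′ up to the base before the start, and the capitals mark the relaxed repeat in Fabp1 and the half-site in Cd36 and Slc27a2.
Fabp1, chr6:71199629-71199878, plus strand: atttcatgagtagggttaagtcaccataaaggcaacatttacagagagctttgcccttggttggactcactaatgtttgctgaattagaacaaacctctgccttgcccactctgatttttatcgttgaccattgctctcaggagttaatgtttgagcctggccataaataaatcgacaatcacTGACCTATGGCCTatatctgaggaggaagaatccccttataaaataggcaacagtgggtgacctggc
Cd36, chr5:17835897-17836146, minus strand: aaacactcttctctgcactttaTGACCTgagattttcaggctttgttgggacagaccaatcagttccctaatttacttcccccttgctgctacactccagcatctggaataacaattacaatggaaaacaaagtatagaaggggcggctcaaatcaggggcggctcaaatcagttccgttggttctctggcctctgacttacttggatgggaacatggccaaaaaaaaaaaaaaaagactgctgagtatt
Slc27a2, chr2:126552774-126553023, plus strand: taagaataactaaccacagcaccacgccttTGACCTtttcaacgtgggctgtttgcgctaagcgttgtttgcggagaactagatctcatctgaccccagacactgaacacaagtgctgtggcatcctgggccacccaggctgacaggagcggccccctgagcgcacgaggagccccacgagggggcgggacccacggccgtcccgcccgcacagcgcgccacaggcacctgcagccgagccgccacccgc
The repeat in Fabp1 lay from base -67 to -55 before its start, and a further half-site, not in capitals, lay from -9 to -4. The half-sites lay from -228 to -223 in Cd36 and from -220 to -215 in Slc27a2. Fabp2, Slc27a4, Acsl3, Acsl5 and Dbi were also higher in wild-type mice after WY14643 and held none of these letters in their windows. Neither did Acsl4, which was not called. A match is a description of the letters, and binding was not measured.

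After DHA, 2 of the 9 genes were called, both higher in wild-type mice, while 8.2% of all expressed genes were called, 4.49% as higher and 3.71% as lower. They were Fabp1 and Fabp2. Fabp1 read 14.85, 14.95, 14.98, 14.86 and 14.89 in wild-type and 14.69, 14.70, 14.62 and 14.82 in null mice, a difference of 0.20 (SE 0.054, adjusted p = 0.0245), and its second probeset gave 0.28 (SE 0.065, adjusted p = 0.00871). Fabp2 read 14.01, 14.14, 14.06, 14.06 and 14.00 in wild-type and 13.90, 13.87, 13.93 and 13.97 in null mice, a difference of 0.14 (SE 0.040, adjusted p = 0.0389). Neither gene's groups overlapped, and 4 of the 16 expressed probesets had wild-type arrays wholly above null arrays, beside 6.97% of all expressed probesets. Without null DHA replicate 3 no gene was called, with adjusted p = 0.14 for Fabp1 and 0.107 for Fabp2. Fabp1 was also lost on this probeset without wild-type replicate 3 or null replicate 1 (adjusted p = 0.0578 and 0.0652), and Fabp2 without wild-type replicates 2, 3 or 4 or null replicates 1 or 2 (adjusted p from 0.0616 to 0.0948). Without null DHA replicate 4 there were 4 calls.

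The other 7 genes read higher on average in wild-type mice after DHA without passing the test. Slc27a4 differed by 0.45 (SE 0.15, adjusted p = 0.0692), with wild-type arrays from 10.13 to 10.48 and null arrays at 9.78, 9.77, 10.14 and 9.78. A single null array, replicate 3, reached into the wild-type range. Dbi differed by 0.16 (adjusted p = 0.182) on its brightest probeset and by 0.23 (adjusted p = 0.0569) on another. Cd36 differed by 0.39 (95% interval -0.059 to 0.83) and Slc27a2 by 0.41 (95% interval -0.051 to 0.86). Although the 3 doubtful arrays belong to other agonists, they add to the common estimate of the spread, and without them Slc27a4 (adjusted p = 0.00801), Acsl5 (0.18, adjusted p = 0.0394) and another probeset of Cd36 (0.75, adjusted p = 0.0309) were called as well. This made 5 calls after DHA, with 9.67% of all expressed genes called. Among the 7 enterocyte markers, Anpep and Lct were lower in wild-type mice after DHA, both by a log2 difference of -0.44 (adjusted p = 0.0262 and 0.0222). Mttp and Alpi read higher, by 0.16 and 0.057 (adjusted p = 0.225 and 0.664). Vil1, Apoa4 and Apob differed by -0.097, -0.069 and -0.070 (adjusted p = 0.151, 0.469 and 0.925). Cidec of the adipocyte list was higher by 0.83 (adjusted p = 0.0371). The part of these markers in the differences after DHA was not tested.

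After EPA no gene of the 9 was called, nor was any of the 8626 expressed genes (0%), with the 3 doubtful arrays under their labels. At an unadjusted p under 0.05, 1 of the 9 genes and 1044 of all genes passed. Slc27a4 shows how 2 of these arrays lie. It read 10.41, 10.25, 10.42, 10.10 and, in the doubtful replicate 5, 9.58 in wild-type mice, and 9.86, 9.90, 9.74, 9.61 and, in the doubtful replicate 5, 10.39 in null mice. In both genotypes the replicate 5 array lay among those of the other genotype or beyond them. The difference was 0.25 (SE 0.14, adjusted p = 0.599) with all arrays and 0.52 (SE 0.11, adjusted p = 0.00968) without the 3. Fabp1 moved from 0.13 to 0.20 (adjusted p = 0.0233) and Fabp2 from 0.061 to 0.13 (adjusted p = 0.0434). Cd36 moved from 0.27 to 0.54 (adjusted p = 0.0992) and Slc27a2 from 0.20 to 0.55 (adjusted p = 0.109), without a call. Acsl3 turned from -0.079 to 0.15 (adjusted p = 0.719), and Acsl5 (0.015 to 0.11) and Dbi (0.044 to 0.087) moved upwards as well without passing. Without the 3 arrays there were thus 3 calls after EPA, all higher in wild-type mice, and 2.08% of all expressed genes were called.

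After OA no gene of the 9 was called with all arrays, beside 0.498% of all expressed genes. At an unadjusted p under 0.05, 8 of the 9 genes passed, beside 1297 of all genes, and 9 of 9 differences were positive, beside 50.2% of all genes. The median difference was 0.32 on the log2 scale, beside 0.0006 over all genes. In 7 of the 16 expressed probesets every wild-type array was above every null array, beside 6.14% of all expressed probesets. Acsl5 read 13.62, 13.45, 13.61 and 13.65 in wild-type and 13.23, 13.33, 13.33 and 13.36 in null mice, with no overlap, a difference of 0.27 (SE 0.067, adjusted p = 0.0699). It passed without wild-type OA replicate 2 (0.31, adjusted p = 0.0376). Acsl3 read 8.89, 8.73, 9.06 and 8.64 in wild-type and 8.57, 7.97, 7.94 and 8.27 in null mice, also with no overlap, a difference of 0.64 (SE 0.19, adjusted p = 0.14). Without the 3 arrays, which leaves 3 null OA arrays, Cd36 (0.71, adjusted p = 0.0424), Slc27a4 (0.55, adjusted p = 0.0148), Acsl3 (0.77, adjusted p = 0.0219) and Acsl5 (0.24, adjusted p = 0.0421) were called, beside 1.77% of all expressed genes. Acsl4 moved from 0.32 to 0.14 and Dbi from 0.075 to 0.15, neither with a call. Markers of acinar pancreas summed to between 8590 and 39100 in wild-type and between 31900 and 65000 in null OA arrays, and their part was not tested.

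**Figure D2:**
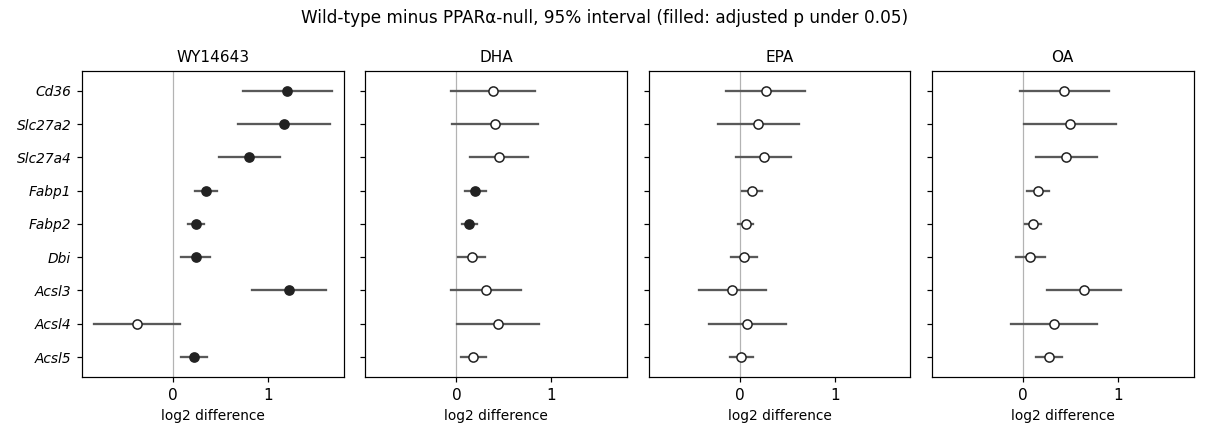
Log2 difference of each gene between wild-type and PPARα-null mice after each agonist, with its 95% interval from the model; filled points had an adjusted p under 0.05, and all 3 doubtful arrays are included. After WY14643, 8 of the 9 genes are filled, after DHA 2, and after EPA and OA none.

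The difference between genotypes was itself compared between agonists. Acsl3 was the only 1 of the 9 genes whose genotype difference depended on the agonist past the threshold, and only for WY14643 against EPA, where 1.3% of all expressed genes were called. Against DHA and OA none of the 9 was called with all arrays, beside 0.58% and 1.3%. Its genotype difference was 1.22 after WY14643 and -0.079 after EPA, and the difference between them was 1.30 (SE 0.26, adjusted p = 0.00442), with 1.35 (adjusted p = 0.00888) on its second probeset. The negative sign after EPA rests on the doubtful arrays, since without the 3 the genotype difference there was 0.15. The difference between the agonists was then 1.07 (SE 0.24, adjusted p = 0.0139), beside 1.1% of all expressed genes. The same difference against DHA was 0.91 (95% interval 0.37 to 1.45, adjusted p = 0.158) with all arrays and was called without the 3 (adjusted p = 0.0498, beside 1.22% of all expressed genes), and against OA it was 0.58 (95% interval 0.022 to 1.13, adjusted p = 0.52). Cd36, with a genotype difference of 1.20 after WY14643 and of 0.27 to 0.43 after the 3 triacylglycerols, gave 0.81, 0.93 and 0.77 against DHA, EPA and OA, none of which passed (adjusted p = 0.429, 0.223 and 0.422). Without the 3 arrays the genotype difference of Cd36 was 0.54 after EPA and 0.71 after OA, and WY14643 against these gave 0.66 and 0.49 (adjusted p = 0.345 and 0.645). A call after WY14643 and none after a triacylglycerol does not show that these genes responded differently. Between the triacylglycerols none of the 9 genes was called in an interaction, and none of all genes was (0%).

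Within wild-type mice, WY14643 and the triacylglycerols differed in many genes, so that calls among the 9 say little about them in particular. The calls were 5 of 9 against DHA, 5 against EPA and 4 against OA, beside 40.5%, 45.1% and 33.8% of all expressed genes. WY14643 was given without fat and in another vehicle, at another dose, and these cannot be told apart from the agonist itself. Cd36 was higher after WY14643 than after DHA, EPA and OA, by 1.03 (adjusted p = 0.000591), 1.23 (adjusted p = 6.14e-05) and 1.20 (adjusted p = 0.000258). In wild-type DHA mice it read 10.63, 10.86, 10.49, 9.98 and 10.39, below the lowest WY14643 array at 11.22. Cd36 thus stood apart in wild-type mice after WY14643, and the other 7 group means of 9.87 to 10.47 followed each other by steps smaller than their SD. Markers of several cells differed in the same comparisons. Of the 7 enterocyte markers, 4 were higher after WY14643 than after DHA (Apoa4, Anpep, Lct and Apob), Lct and Apob were higher than after EPA and OA, and Mttp was lower than after OA. Their summed level was 56300 to 58000 after WY14643, 46300 to 55100 after DHA, 50500 to 54700 after EPA and 57300 to 60300 after OA. Agr2, of the 6 goblet cell markers, was lower than after DHA and EPA (-1.09 and -1.27) and also than after OA, and so was Top2a, of the 3 crypt markers expressed (-0.60, -0.52 and -0.77 against DHA, EPA and OA). Of the same crypt list, Mki67 was lower than after DHA and OA (-0.32 and -0.45, adjusted p = 0.0332 and 0.00632). Olfm4 went the other way and was higher than after DHA (0.30, adjusted p = 0.048). The ileal Slc10a2 and Fabp6 were lower than after EPA and OA, and the smooth muscle genes Acta2 and Actg2 lower than after EPA. The part of these cells in the differences between agonists was not tested.

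Slc27a2 was higher after WY14643 than after DHA by 1.40 (adjusted p = 3.06e-05), EPA by 1.74 (adjusted p = 8.33e-07) and OA by 0.85 (adjusted p = 0.00742). Acsl3 was higher than after DHA by 1.45 (adjusted p = 1.51e-06) and EPA by 1.60 (adjusted p = 1.57e-07), whereas against OA the difference of 0.46 (95% interval 0.064 to 0.85) did not pass (adjusted p = 0.0747). Slc27a4 was called against EPA (0.45, adjusted p = 0.0168) but not without wild-type EPA replicate 5 alone (0.31, adjusted p = 0.0759), nor without wild-type WY14643 replicates 2 or 3 (adjusted p = 0.0521 and 0.0696). Without all 3 doubtful arrays it passed against EPA (0.31, adjusted p = 0.0305) and DHA (0.29, adjusted p = 0.0368), as did Acsl3 against OA (adjusted p = 0.039). This made 6, 5 and 5 calls against DHA, EPA and OA, beside 41.3%, 44% and 34.8% of all expressed genes. Fabp1, Fabp2 and Dbi differed by at most 0.11 on their brightest probesets between WY14643 and any triacylglycerol in wild-type mice, and no probeset of theirs passed.

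Acsl4 ran the other way. In wild-type mice it read from 7.49 to 8.15 after DHA, 7.41, 8.38, 8.04, 8.43 and 7.76 after EPA, and 7.88, 7.67, 8.20 and 7.57 after OA, all above the highest WY14643 array at 6.98. WY14643 was lower than DHA by a log2 difference of -1.37 (adjusted p = 1.99e-05), than EPA by -1.51 (adjusted p = 2.91e-06) and than OA by -1.33 (adjusted p = 5.97e-05). In null mice the corresponding differences were -0.56 (adjusted p = 0.0856), -1.05 (adjusted p = 0.000528) and -0.63 (adjusted p = 0.0365), so that Acsl4 was lower after WY14643 than after EPA and OA in mice without the receptor as well. The call against OA in null mice was lost without null OA replicates 2, 3 or 4 or null WY14643 replicates 2, 3 or 4 (adjusted p from 0.0631 to 0.119). None of the 3 interactions of Acsl4 between WY14643 and a triacylglycerol passed (adjusted p = 0.405, 0.894 and 0.477).

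Acsl5 was likewise lower after WY14643 than after OA, by -0.48 in wild-type (adjusted p = 5.61e-06) and by -0.43 in null mice (adjusted p = 7e-05), with an interaction of -0.050 (95% interval -0.24 to 0.14, adjusted p = 0.97). In null mice it was lower than after EPA too (-0.24, adjusted p = 0.0057). Against DHA it was called in both genotypes close to the threshold (adjusted p = 0.0497 in wild-type and 0.0397 in null mice). Those 2 calls were lost when single DHA or WY14643 arrays were left out, with adjusted p up to 0.139 and 0.196.

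In null mice 2, 4 and 5 of the 9 genes were called between WY14643 and DHA, EPA or OA, beside 19.9%, 37.8% and 31.5% of all expressed genes. Against DHA the calls were Acsl5 and, on its second probeset, Acsl3 (0.63, adjusted p = 0.045). Slc27a2 was higher after WY14643 than after EPA by 0.77 (adjusted p = 0.00951), and Fabp1 was lower on its second probeset (-0.22, adjusted p = 0.0104). Against OA, Fabp1 was lower by a log2 difference of -0.18 (adjusted p = 0.0199), although without null OA replicate 1 it was -0.16 (adjusted p = 0.0554) on this probeset, while the second gave -0.30 (adjusted p = 0.0022) with all arrays. Fabp2 was lower by -0.12 (adjusted p = 0.0339) and Dbi on another probeset by -0.28 (adjusted p = 0.0429). With the 3 arrays left out Dbi was not called (-0.21, adjusted p = 0.157), and Cd36 was called against EPA (0.48, adjusted p = 0.0296) and OA (0.71, adjusted p = 0.00512) and Slc27a2 against DHA (adjusted p = 0.0151). There were then 3, 5 and 5 calls against DHA, EPA and OA, beside 20.8%, 35.7% and 30.5%. The call of Fabp2 was lost when null OA replicates 2, 3 or 4 or null WY14643 replicates 1, 2 or 3 were left out (adjusted p from 0.0506 to 0.0992) and with quantile normalization (-0.045, adjusted p = 0.508). Of the markers, all 5 of acinar pancreas were lower after WY14643 than after OA in null mice (sums from 1160 to 7170 and from 31900 to 65000). Agr2 was lower and Lct higher than after each triacylglycerol. Of the other enterocyte markers, Apob was higher than after DHA and EPA and Vil1 than after OA, but Mttp was lower than after OA (-0.37, adjusted p = 0.00122). Tff3 of the goblet list was higher than after OA (0.13, adjusted p = 0.0318). The ileal Slc10a2 was lower than after DHA, EPA and OA (-1.25, -1.62 and -1.04), and Fabp6 than after DHA and EPA. Top2a was lower than after EPA and OA, and Acta2 and Cidec than after OA (-0.37 and -0.90). Col3a1 was lower than after EPA. Chga, Chgb, Gip and Lyz1 were higher than after OA. Gip, Sct and Gzma were higher than after DHA, and Ttr than after EPA. The part of these markers was not tested. Over all 6 pairs of agonists the calls summed to 12 in null mice, and to 6 without null WY14643 replicate 2 or replicate 3.

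**Figure D3:**
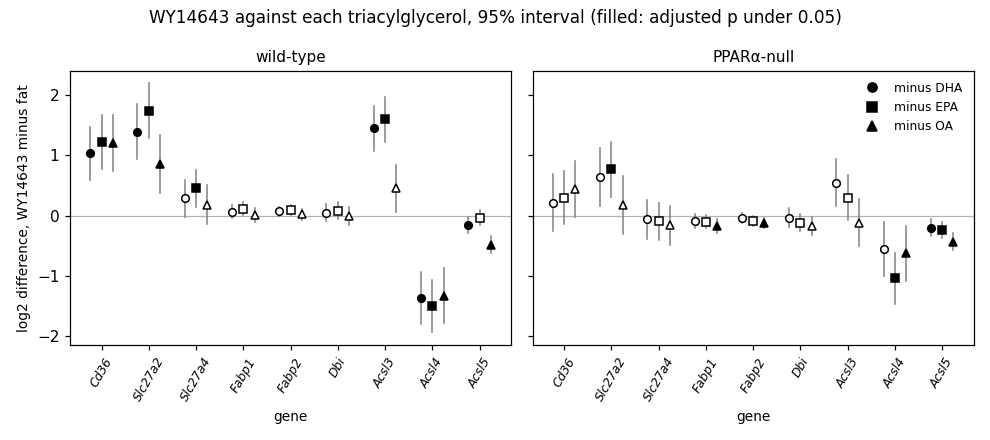
Log2 difference between WY14643 and each triacylglycerol within wild-type (left) and PPARα-null mice (right), with the 95% interval from the model; symbols give the triacylglycerol, and filled symbols had an adjusted p under 0.05. Cd36, Slc27a2 and Acsl3 lie above 0 and Acsl4 below 0 against all 3 triacylglycerols in wild-type mice.

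The 3 triacylglycerols were given in the same volume and at the same time, and differ in the length and the number of double bonds of their fatty acid. Between DHA and EPA, both highly unsaturated, none of the 9 genes was called in either genotype, beside 0.719% of all expressed genes in each. At an unadjusted p under 0.05, 1 gene passed in wild-type mice and 1 in null mice, beside 1458 and 1055 of all 8626 expressed genes. The intervals were narrow for Fabp2 (-0.050 to 0.10 in wild-type mice) and wide for Slc27a2 (-0.084 to 0.78) and Acsl4 (-0.54 to 0.27). In null mice Acsl4 gave -0.49 (95% interval -0.92 to -0.057, adjusted p = 0.444).

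Against OA, the monounsaturated fatty acid, Acsl3 and Acsl5 were lower after both DHA and EPA in wild-type mice. For DHA against OA these were the 2 genes called, beside 4.56% of all expressed genes. For EPA against OA they were joined by Slc27a2, beside 8.01%. Again 2 and 3 genes were called without the 3 arrays, beside 5.45% and 6.77%. Acsl3 read from 7.48 to 8.05 after DHA, from 7.31 to 7.93 after EPA and from 8.64 to 9.06 after OA, so the OA arrays lay above all others. The log2 difference was -0.99 for DHA (SE 0.18, adjusted p = 0.000793) and -1.14 for EPA (SE 0.18, adjusted p = 0.000105). Acsl5 read 13.15, 13.29, 13.39, 13.25 and 13.21 after DHA and 13.15, 13.20, 13.13, 13.18 and 13.00 after EPA, all below the OA arrays. It was lower than after OA by -0.32 (SE 0.064, adjusted p = 0.00195) and -0.45 (SE 0.064, adjusted p = 1.93e-05). Some of the 7 enterocyte markers moved the same way. Apoa4, Mttp and Anpep were lower after DHA than after OA (-0.25, -0.27 and -0.49, adjusted p = 0.00412, 0.0402 and 0.0164) and Apoa4 and Mttp after EPA (-0.22 and -0.40, adjusted p = 0.00934 and 0.000887). The other markers of the list were not called. Lct and Vil1 had means of 12.18 and 13.04 after EPA, beside 12.11 and 13.04 after OA, and Alpi had 13.00 after both DHA and OA. The summed level of the 7 markers, at 46300 to 55100 after DHA and 50500 to 54700 after EPA, lay wholly below the 57300 to 60300 after OA, and the part of this in the differences of Acsl3, Acsl5 and Slc27a2 was not tested.

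Slc27a2 read 10.62, 10.42, 10.58, 10.31 and 9.95 after EPA and 11.44, 10.96, 11.26 and 11.43 after OA in wild-type mice. The groups did not overlap, and the log2 difference was -0.89 (SE 0.22, adjusted p = 0.012), with -0.79 (adjusted p = 0.00538) without the 3 arrays. Against DHA it was -0.55 (SE 0.22, adjusted p = 0.224). The other 6 genes did not pass between OA and DHA or EPA in wild-type mice. For Cd36 the differences were 0.17 (95% interval -0.27 to 0.62) and -0.023 (95% interval -0.47 to 0.42), the latter 0.064 without the 3 arrays.

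In null mice Acsl3 was the 1 gene called for DHA against OA, on its second probeset (-0.85, adjusted p = 0.0477), beside 1.31% of all expressed genes. No gene was called for EPA against OA, beside 3.15% of all expressed genes. At an unadjusted p under 0.05, 3 of the 9 genes passed there, beside 1642 of all 8626 expressed genes. The differences pointed the same way as in wild-type mice for Acsl3, at -0.66 (adjusted p = 0.0984) and -0.42 (adjusted p = 0.27), and for Acsl5, at -0.23 (adjusted p = 0.0984) and -0.20 (adjusted p = 0.102). Without the 3 arrays Acsl5 was called against both DHA (-0.26, adjusted p = 0.0276) and EPA (-0.28, adjusted p = 0.00845), Slc27a2 against EPA (-0.70, adjusted p = 0.043), and Acsl3 against neither (on its second probeset, -0.79 against DHA, adjusted p = 0.0571). This made 1 call against DHA and 2 against EPA, beside 1.73% and 3.18% of all expressed genes. No interaction between OA and another triacylglycerol passed, so these differences were not shown to depend on the genotype.

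**Figure D4:**
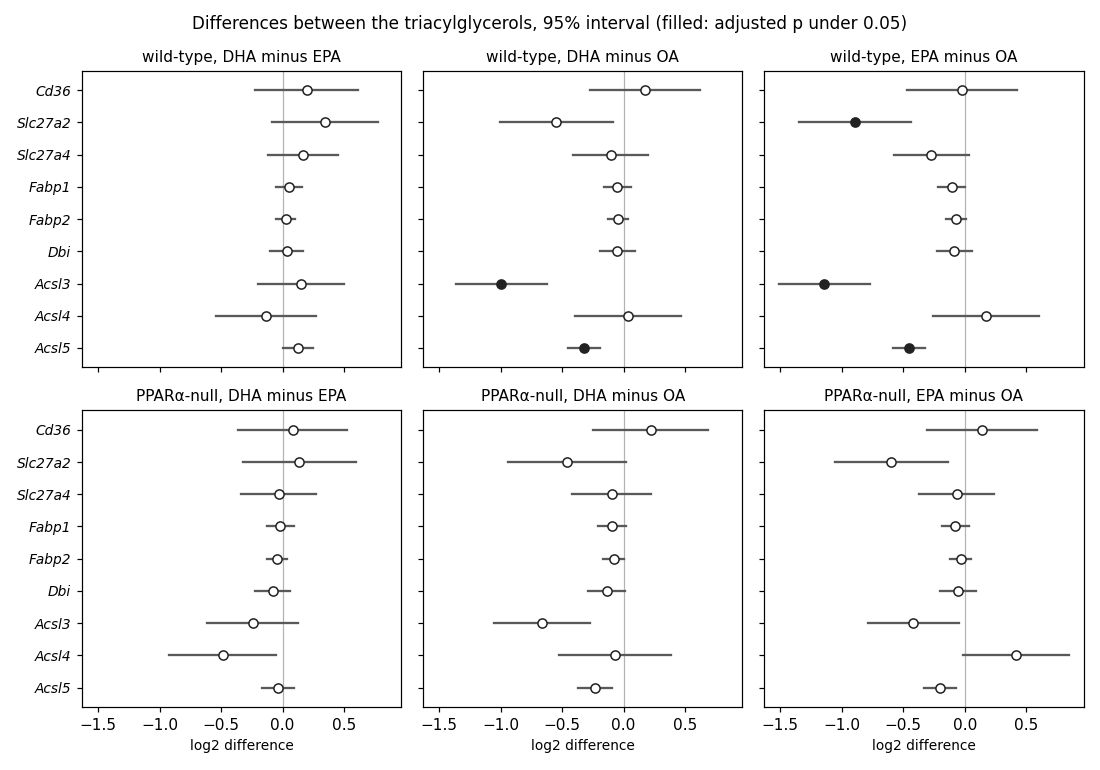
Log2 difference of each gene between pairs of triacylglycerols in wild-type (top) and PPARα-null mice (bottom), with the 95% interval from the model; filled points had an adjusted p under 0.05. In wild-type mice Acsl3 and Acsl5 are filled and below 0 for DHA and for EPA against OA, and Slc27a2 for EPA against OA; no point is filled in null mice, where Acsl3 was called on another probeset.

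The orders of the 8 group means differed between the genes. Fabp1, Fabp2 and Slc27a4 had the same order, from wild-type mice after WY14643, OA, DHA and EPA down to null mice after OA, EPA, DHA and WY14643. No neighbours in it were apart by more than both their SDs, except the last 2 for Fabp1. Acsl3 was highest after WY14643 and OA in wild-type mice, at 9.29 (SD 0.28, n = 4) and 8.83 (SD 0.18, n = 4), and lowest after DHA in null mice, at 7.52 (SD 0.40, n = 4). Acsl5 was highest after OA in both genotypes, at 13.58 (SD 0.090, n = 4) and 13.31 (SD 0.055, n = 4). Acsl4 had its lowest means after WY14643, at 6.50 (SD 0.36, n = 4) for wild-type mice and at 6.88 (SD 0.26, n = 4) for null mice.

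Across the 35 arrays, which share the groups above, Slc27a2 correlated with Acsl3 at r = 0.90 and with Cd36 at r = 0.83, Fabp1 with Fabp2 at r = 0.85, and Acsl4 with Slc27a2 at r = -0.68. These are descriptions, since differences between the groups add to the spread, by a share that was not computed. Probesets of a gene agreed in part, from r = 0.95 for a pair of Cd36 to r = 0.68 for a pair of Dbi among those expressed. Outside the 9 genes, the genes whose pattern over the 35 arrays was most like each member were Acadm for Cd36 (r = 0.96), which encodes an acyl-CoA dehydrogenase of mitochondrial β-oxidation, Ephx2 for Slc27a2 (r = 0.96), an epoxide hydrolase, Aldh3a2 for Slc27a4 (r = 0.93), a fatty aldehyde dehydrogenase, and Srebf1 for Acsl3 (r = 0.93), a transcription factor of lipid synthesis. Acsl4 was most like Eif4a1 (r = 0.95) and Slc2a1 (r = 0.95), a translation factor and a glucose transporter. Acsl5 was most like Suco (r = 0.92), and Mttp, which loads chylomicrons with lipid, was the third (r = 0.91). Fabp1 and Fabp2 were both most like Rab30 (r = 0.90 and 0.91), and Dbi had the weakest match, Ppp2r5c (r = 0.75).

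A further list held 25 other genes of fatty acid uptake, binding and activation, of which 24 were on the array and 15 were expressed. After WY14643, 3 of the 15 were higher in wild-type mice and none was lower, beside 4.13% and 3.43% of all expressed genes. These were Scarb1, a receptor for high-density lipoprotein (0.77, adjusted p = 0.0341), Got2, a mitochondrial aminotransferase also described as a fatty acid-binding protein of the plasma membrane (0.47, adjusted p = 0.000561), and Acbd5, an acyl-CoA-binding protein of peroxisomes (0.57, adjusted p = 0.00158). After DHA, Scarb1 was higher by 1.24 (adjusted p = 0.00119) and no other gene of the list was called, beside 8.2% of all expressed genes. After EPA and OA none of the list was called, beside 0% and 0.498% of all expressed genes. The median difference of the list after WY14643 was 0.093, beside 0.34 for the 9 genes and -0.058 for all expressed genes. Slc27a1, Slc27a3, Slc27a5, Fabp3, Fabp7 and Acsl6, relatives of the 9 genes better known from other tissues, were below the expressed level, and Fabp4, Fabp5 and Fabp6 were expressed without a call after any agonist.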

How the data were processed

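Affymetrix expression arrays were hybridised with intestinal RNA, 1 array for each of 35 mice. The deposited values are log2 expression estimates that the authors computed with GCRMA, which corrects background, normalizes between arrays and combines the probes of a probeset; its version is not given in the sources used here. Values were used as deposited. Array medians ran from 2.83 to 2.88, and with arrays the number of mice limits the precision. Gene symbols came from the array's probe table, and probesets with several symbols (932) or none (9160) were not named.

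A single limma model (version 3.58.1, R 4.3.3) with 8 group means and an intensity trend was fitted to all 35 arrays, with Benjamini-Hochberg adjustment of each contrast over 15384 expressed probesets. The contrasts were the genotype difference after each of 4 agonists, 6 pairs of agonists in each genotype and 6 interactions. Every member was named with all its probesets, the most alike genes were ranked by Pearson's r, and called genes of other lists could be named. The fit was tested on simulated data. The members and lists were chosen with earlier results of these data known. Alternatives changed the filter, scaling, prior, weights, probesets, threshold and arrays. The mice were separate animals, and the labels give no batch.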

Additional observations from a re-analysis of the deposited data

Results flagged for a closer look

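Over the 9 genes and 8 groups, 5 of 72 sets of 4 or 5 arrays had 1 array far from the rest, and chance gives about 1 in 20. In 4 of the 5 it was an array that goes against its genotype label. In null EPA replicate 5, Cd36 read 10.74 beside 9.73 to 9.98 in the other null EPA arrays, Fabp2 read 14.13 beside 13.91 to 13.94, and Slc27a2 read 11.18 beside 9.74 to 10.07. In null OA replicate 1, Acsl4 read 6.97 beside 7.68 to 7.71. In null DHA replicate 3, Slc27a4 read 10.14 beside 9.77 to 9.78; this array was not among the 3 that go against their labels.

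For Acsl3 the genotype difference was larger after WY14643 than after EPA by 1.30 on the log2 scale, by the interaction test (adjusted p = 0.00442).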

How the results depend on the processing

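Directions did not change for any called difference under any alternative, and 28 of the 38 called differences of single genes stayed past the threshold under all alternatives with a threshold of 0.05 or the unadjusted 0.01. After WY14643 the count of 8 genes stayed between 7 and 8. After DHA the 2 genes became 1 with no filter, with a fit of only the groups compared, without the intensity trend and at an adjusted p under 0.01, 6 with array weights or at an unadjusted p under 0.01, and 5 without the 3 arrays. After EPA 0 became 3 without the 3 arrays. After OA 0 became 1 with quantile normalization or array weights and 4 at an unadjusted p under 0.01 or without the 3 arrays. In wild-type mice the 19 calls between agonists ran from 16 to 24. In null mice the 12 calls became 6 with no filter, 19 with array weights and 5 at an adjusted p under 0.01. The 1 interaction became 2 with a filter at log2 6, only the groups compared, quantile normalization, median centring or without the 3 arrays, 7 with array weights and 10 at an unadjusted p under 0.01. The cause was not tested. Leaving out 1 array at a time gave 7 in each case after WY14643, 0 to 4 after DHA, 0 in each case after EPA, 0 to 1 after OA, 17 to 20 in wild-type mice, 6 to 17 in null mice and 1 to 2 interactions.

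The replicate numbers were not treated as pairs of mice. The check below has no rate expected by chance, so it cannot exclude a batch shared by number. Of 115 pairs of arrays with the same number, 49 had deviations from their group means that correlated above 0.1 (median 0.0639, beside -0.0268 for different numbers), and 8 of 35 arrays matched their own number best. With the replicate number as a block the counts were 8, 1, 0 and 0 after WY14643, DHA, EPA and OA, 18 in wild-type and 12 in null mice, and 1 interaction.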
